A study of Mus musculus with 20 samples.

Results

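This account follows 8 of the 28632 genes with counts in RNAseq of mouse pancreatic islets. They are *Aldh1a3*, *Gast*, *Cck*, *Neurog3*, *Sox9*, *Bach2*, *Slc5a10* and *Fev* and were taken by name as markers of β-cell dedifferentiation or of pancreatic progenitors, with earlier results of these data known. They were followed across 4 genotypes of 12-week-old mice: 6 Ctrl, 4 β-Mfn1KO, 5 β-Mfn2KO and 5 β-Mfn1/2DKO libraries. Mitofusin 1 and 2, encoded by *Mfn1* and *Mfn2*, fuse the outer membranes of mitochondria. Floxed *Mfn1*, floxed *Mfn2* or both were deleted by Cre recombinase expressed from the *Ins1* locus, which is active in β-cells. The knockouts thus all carry *Ins1*-Cre, and the controls, which the labels call wild type, pooled animals that had the Cre without floxed alleles and animals that had floxed alleles without the Cre. Islets were isolated with collagenase, picked by hand and cultured before RNA was taken, and both sexes were present in each genotype.

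A mature β-cell makes insulin and keeps a set of transcription factors and glucose-sensing genes active. Under prolonged metabolic stress β-cells can lose that identity and express genes that are silent or low in the adult cell, a state called dedifferentiation. *Aldh1a3*, a retinaldehyde dehydrogenase that makes retinoic acid, is the marker of this state most often used, and *Gast*, the gastrin gene of the fetal pancreas, is another. *Sox9*, *Neurog3* and *Fev* mark successive steps of development: *Sox9* the multipotent progenitor and later the duct, *Neurog3* the endocrine progenitor, and *Fev* a later stage of that lineage.

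Of the 8 genes, *Aldh1a3*, *Bach2* and *Slc5a10* were higher in β-Mfn1/2DKO than in Ctrl islets, by 2.28, 2.07 and 2.14 times in the fit. *Fev* was 1.40 times higher, a smaller change that passed the adjusted p but not the fold threshold. *Sox9*, *Gast*, *Cck* and *Neurog3* did not pass, and none of the 8 passed in either single knockout. A gene was called where edgeR's quasi-likelihood test gave a Benjamini-Hochberg adjusted p below 0.05 over all genes and the fold change exceeded 1.5 in either direction. Thus 3 of 8 genes were called in β-Mfn1/2DKO, all higher, where 5.21% of all genes were called either way and 3.24% were called higher. The count was 0 of 8 without β-Mfn1/2DKO replicate 5 or with depth class (above or below 40 M counts) as a covariate. It was 1 of 8, *Slc5a10*, without replicates 4 and 5 or with a score of acinar genes as a covariate. Calls over the gene lists used below fell in these fits as well, and the share of all genes called in them is not given here.

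RefSeq promoter sequence was at hand for 6 of the 8 genes, and it is shown for *Bach2*, *Slc5a10* and *Fev*, those of the 6 that passed the adjusted p in β-Mfn1/2DKO. Each window holds the 250 bases before an annotated start (GRCm38.p6), 5′ to 3′ on the strand of the gene. Capitals mark a match to one of 6 short motifs searched on both strands: the TATA box TATAAA, the cAMP response element TGACGTCA, the CCAAT box CCAAT, the BACH and MAF recognition core TGANTCA, the E-box CAGATG and the homeodomain core TAATTA. *Slc5a10* has windows for 2 starts. Each start shown lies inside its gene as annotated, and the *Bach2* window and the second *Slc5a10* window lie wholly within the gene.
Bach2, chr4:32417185-32417434, plus strand: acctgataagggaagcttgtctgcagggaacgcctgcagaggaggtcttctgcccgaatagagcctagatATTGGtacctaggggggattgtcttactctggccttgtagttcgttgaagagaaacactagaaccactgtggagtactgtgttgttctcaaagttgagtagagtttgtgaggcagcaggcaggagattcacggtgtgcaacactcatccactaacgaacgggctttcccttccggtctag
Slc5a10, first start, chr11:61720800-61721049, minus strand: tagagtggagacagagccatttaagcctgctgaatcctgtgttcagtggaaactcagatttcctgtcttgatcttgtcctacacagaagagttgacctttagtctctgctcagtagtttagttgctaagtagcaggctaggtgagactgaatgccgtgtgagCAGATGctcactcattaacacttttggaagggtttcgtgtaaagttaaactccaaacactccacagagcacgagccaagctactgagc
Slc5a10, second start, chr11:61719986-61720235, minus strand: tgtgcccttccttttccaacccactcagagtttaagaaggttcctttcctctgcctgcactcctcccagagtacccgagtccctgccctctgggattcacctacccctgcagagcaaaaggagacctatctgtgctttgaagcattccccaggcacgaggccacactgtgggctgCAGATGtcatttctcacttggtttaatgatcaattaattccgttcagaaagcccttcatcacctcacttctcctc
Fev, chr1:74885409-74885658, minus strand: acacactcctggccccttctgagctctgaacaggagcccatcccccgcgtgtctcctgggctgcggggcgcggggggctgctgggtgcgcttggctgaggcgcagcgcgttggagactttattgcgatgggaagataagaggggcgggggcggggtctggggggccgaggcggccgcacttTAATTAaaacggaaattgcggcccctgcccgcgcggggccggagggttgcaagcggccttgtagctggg

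Each of these windows held 1 match. In *Bach2* it was a CCAAT box on the opposite strand, 180 bases before the start, a motif found in 33.8% of 32851 promoter windows of the same length. Both *Slc5a10* windows held the E-box, 88 and 75 bases before their starts, which 14.4% of windows held. *Fev* had the homeodomain core 69 bases before its start, as did 4.84% of windows. *Bach2* and *Slc5a10*, which were called in the same direction, shared none of the motifs searched. Of the windows not shown, *Neurog3* held a CCAAT box at 89 bases and *Gast* a TATA box at 28 bases before the start. Both were matches on the opposite strand. *Cck* held the E-box at 30 bases before its start. These are matches of letters, and binding was not measured.

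The libraries differed in depth and in exocrine content. Summed counts were 12.4 to 20.3 M in Ctrl, 15.7 to 16.7 M in β-Mfn1KO, 15.1 to 59.5 M in β-Mfn2KO and 65.5 to 122.9 M in β-Mfn1/2DKO, so the deepest group was also the one with changes. Normalized counts of *Mfn1* were 1518 to 1807 in Ctrl and 621 to 770.4 in β-Mfn1KO, and those of *Mfn2* were 3089 to 4373 in Ctrl and 1474 to 1688 in β-Mfn2KO. In β-Mfn1/2DKO they were 687 to 1062 for *Mfn1* and 2022 to 2131 for *Mfn2*, below every Ctrl library. The acinar score, the mean log2 CPM of 20 acinar genes, was 2.81 to 3.62 in 3 β-Mfn1/2DKO libraries but 7.90 in replicate 4 and 9.51 in replicate 5, against 2.48 to 5.02 in Ctrl. Both of these high libraries came from male mice. Results that rest on these 2 libraries are given with and without them, the latter from a fit of the other 18. Islets were sequenced in bulk, so fewer cells of a type and less RNA per cell cannot be told apart.

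Levels can be compared between genes only per length. In Ctrl islets, normalized counts per kilobase of exon were 303 for *Neurog3* and 136 for *Fev*, above those of 80.2% and 69.5% of the 28561 genes with a length. Next came *Sox9* at 20.5, *Aldh1a3* at 16.95 and *Slc5a10* at 11.4 per kilobase. *Cck* at 5.95, *Bach2* at 3.63 and *Gast* at 3.24 were the lowest. *Gast* and *Cck* were thus near the limit of detection, with 3 and 16 counts summed over the 6 Ctrl libraries, while *Neurog3* had 1063.

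**Figure D1:**
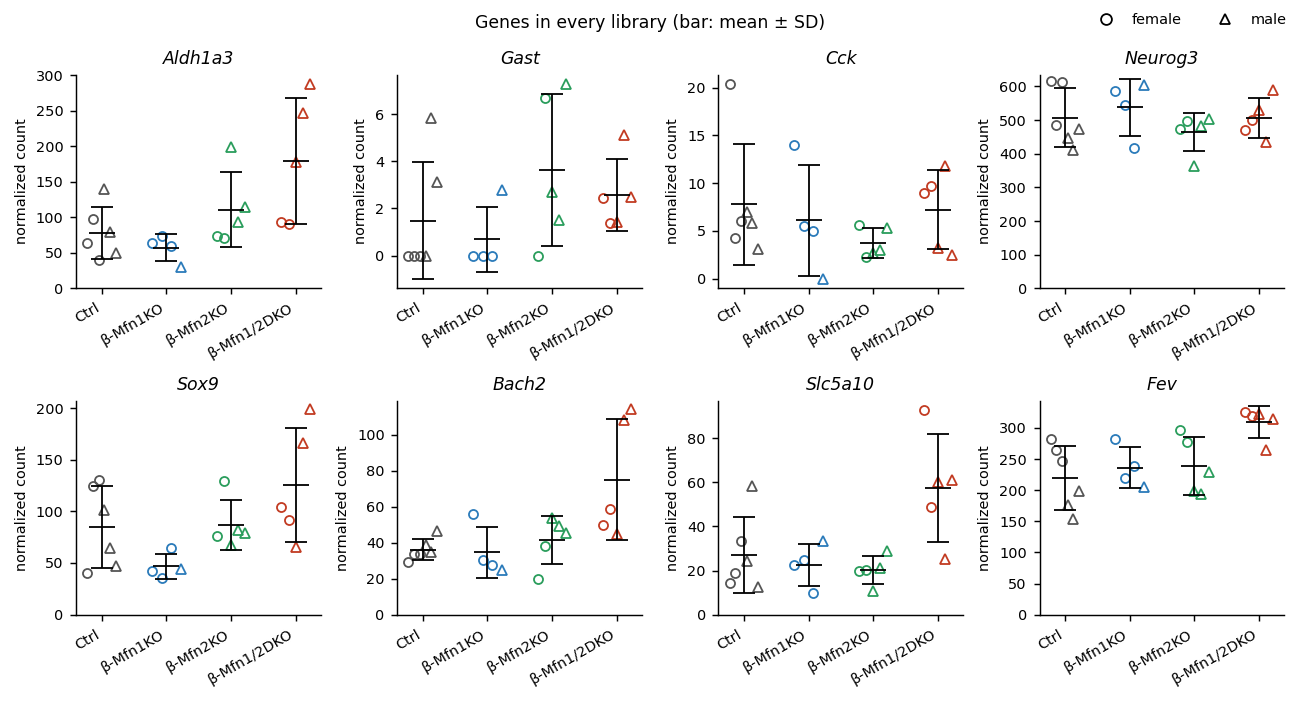
Normalized counts (TMM-scaled, linear axis) of the 8 genes in each library, by genotype; circles are female and triangles male mice, and bars give the mean and SD. In β-Mfn1/2DKO, *Aldh1a3* ran from 90.3 to 288 and *Fev* from 264 to 325, while *Neurog3* lay within the Ctrl range and *Gast* and *Cck* lay near 0.

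*Aldh1a3* (ENSMUSG00000015134, chr7:66390890-66427517, minus strand, GRCm38) stood at 64.0, 97.3, 39.5, 140.3, 78.7 and 49.8 normalized counts in Ctrl. In β-Mfn1KO it was at 64.2, 74.2, 59.6 and 30.5. In β-Mfn2KO it was at 73.3, 71.5, 199, 93.3 and 114. In β-Mfn1/2DKO it reached 92.9, 90.3, 177, 247 and 288. The β-Mfn1/2DKO libraries spread over a 3-fold range, and the lower of them overlapped the higher Ctrl libraries. Mean levels with their SD were 78.3 ± 36.7 for the 6 Ctrl, 57.1 ± 18.8 for the 4 β-Mfn1KO, 110.3 ± 52.6 for the 5 β-Mfn2KO and 179 ± 89.1 for the 5 β-Mfn1/2DKO libraries. Relative to Ctrl, β-Mfn1/2DKO was thus 1.19 ± 0.35 log2 units higher (SE), with an adjusted p of 0.0193 in edgeR. The highest values were those of the 2 libraries with high acinar scores, and without both the log2 fold change was 0.64 with an adjusted p of 0.286. With the acinar score as a covariate it was 0.89 (adjusted p = 0.0678). β-Mfn2KO replicate 3, at 199, had an acinar score of 3.02, within the Ctrl range. Leaving out replicate 4 or replicate 5 alone also cost *Aldh1a3* its call, with adjusted p values of 0.0529 and 0.0707.

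*Aldh1a3* works in a chain of retinoid enzymes, carriers and receptors. Of 16 genes of retinoid synthesis, handling and receptors, 1 was called higher in β-Mfn1/2DKO and 0 lower, with a median log2 fold change of 0.15 against 0.06 over all genes. The called gene was *Aldh1a1*, the related retinaldehyde dehydrogenase, at 1.58 ± 0.34 (SE, adjusted p = 0.00191 in edgeR), and it was still called without β-Mfn1/2DKO replicates 4 and 5, at 1.01 (adjusted p = 0.0486). *Rbp4*, the retinol carrier, was at −0.18 (adjusted p = 0.501). *Rxra*, a retinoid receptor, changed by 0.22 with an adjusted p of 0.0424, under the fold threshold.

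*Bach2* (ENSMUSG00000040270, chr4:32238804-32586108, plus strand) encodes a basic leucine zipper repressor that pairs with small MAF proteins and is best known from lymphocytes. It stood at 29.1, 33.8, 33.4, 38.6, 35.0 and 46.7 normalized counts in Ctrl. It was at 55.8, 30.2, 27.3 and 24.9 in β-Mfn1KO and at 19.7, 38.0, 53.8, 49.3 and 45.6 in β-Mfn2KO. In β-Mfn1/2DKO it was at 49.5, 58.5, 44.8, 108 and 114. Only the lowest β-Mfn1/2DKO library, at 44.8, lay below the highest Ctrl library, at 46.7. Mean levels with their SD were 36.1 ± 6.02 for the 6 Ctrl, 34.6 ± 14.3 for the 4 β-Mfn1KO, 41.3 ± 13.4 for the 5 β-Mfn2KO and 75.01 ± 33.4 for the 5 β-Mfn1/2DKO libraries. Relative to Ctrl, β-Mfn1/2DKO was 1.05 ± 0.29 log2 units higher (SE), with an adjusted p of 0.0146 in edgeR. The values over 100 came from replicates 4 and 5. Without both, the log2 fold change was 0.52 with an adjusted p of 0.290, and with the acinar score as a covariate it was 0.74 (adjusted p = 0.0757). Without replicate 5 alone, the adjusted p was 0.0550. Of 12 lymphocyte markers 0 were called and 3 were at 0 in all Ctrl libraries, and their summed level was 295 to 629 normalized counts in Ctrl and 355 to 1413 in β-Mfn1/2DKO; the part of lymphocytes in the *Bach2* level was not tested.

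The antisense gene *Bach2os* lies on the opposite strand within *Bach2* and shares 537 exon bases with it. Its mean was 11.3 normalized counts in Ctrl and 30.9 in β-Mfn1/2DKO, and it was called as well, at 1.43 ± 0.36 (SE, adjusted p = 0.0081 in edgeR), and at 1.45 (adjusted p = 0.0208) without replicates 4 and 5. Whether counting used strand is not given in the sources used here, so reads in the shared bases cannot be assigned between them and both values are uncertain. Of 10 genes for BACH1, small MAF partners and known targets, 0 were called in β-Mfn1/2DKO, with a median log2 fold change of −0.04. Of them 1 passed the adjusted p alone. The 2 of highest level, the ferritin chains *Ftl1* and *Fth1*, were at 0.27 (adjusted p = 0.0870) and −0.11 (adjusted p = 0.685). At 11.3 to 30.9 normalized counts in *Bach2os* and 34.6 to 75.01 in *Bach2*, as group means, both genes are low.

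*Slc5a10* (ENSMUSG00000042371, chr11:61672781-61720826, minus strand) encodes SGLT5, a sodium-coupled carrier of mannose and fructose best known from the kidney. Its normalized counts in Ctrl were 14.5, 19.04, 33.4, 24.6, 58.3 and 12.5. They were 22.3, 24.7, 9.93 and 33.3 in β-Mfn1KO and 19.7, 20.1, 10.8, 21.2 and 29.1 in β-Mfn2KO. In β-Mfn1/2DKO they were 92.9, 48.9, 60.3, 25.1 and 61.1. All of these 5 libraries but replicate 4 were above 5 of the 6 Ctrl libraries, and Ctrl replicate 5 overlapped them. Mean levels with their SD were 27.0 ± 17.1 for the 6 Ctrl, 22.6 ± 9.64 for the 4 β-Mfn1KO, 20.2 ± 6.49 for the 5 β-Mfn2KO and 57.6 ± 24.5 for the 5 β-Mfn1/2DKO libraries.

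The log2 fold change of *Slc5a10* in β-Mfn1/2DKO over Ctrl was 1.09 ± 0.37 (SE), with an adjusted p of 0.0462 in edgeR, close to the threshold. Without replicates 4 and 5, the libraries of high acinar score, the value was 1.34 (adjusted p = 0.022) and still called. With the score as a covariate it was 1.15 and still called, but without replicate 5 alone the call was lost. *Slc5a10* was the only one of the 8 called against β-Mfn2KO, at 1.45 ± 0.38 (SE, adjusted p = 0.0122), where 3.84% of all genes were called. Among the libraries above 40 M counts only, which leaves 2 of β-Mfn2KO and 5 of β-Mfn1/2DKO, that value was 1.24 with an adjusted p of 0.163. The 1 gene of the 8 called there was *Fev*, at 0.60 (adjusted p = 0.0356). Both of those β-Mfn2KO libraries came from males, while 2 of the 5 β-Mfn1/2DKO libraries came from females, so that comparison mixes sex with genotype. With counts drawn down to the smallest library total, *Slc5a10* was at 0.97 against Ctrl (adjusted p = 0.0983). Of the 20 fits that left out 1 library, 13 missed the threshold, with adjusted p values up to 0.135.

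*Slc5a10* overlaps *Fam83g* on the opposite strand over 393 exon bases, and *Fam83g* was far more abundant, at a mean of 2883 raw counts per library against 46.1. Of the 75-base stretches in *Slc5a10* transcripts, 7.56% also occur in *Fam83g*, so the *Slc5a10* counts are uncertain. *Fam83g* itself moved the other way, at −0.20 ± 0.065 (SE, adjusted p = 0.0401 in edgeR, under the fold threshold). *Grap*, which shares 4 exon bases with *Slc5a10*, was called higher at 0.93 ± 0.27 (SE, adjusted p = 0.0208) but not without replicates 4 and 5 (0.74, adjusted p = 0.0976). Of 9 other SLC5 carriers, 0 were called higher and 1 lower: *Slc5a1*, the intestinal glucose carrier SGLT1, at −0.88 ± 0.29 (SE, adjusted p = 0.0397), and at −1.11 (adjusted p = 0.0356) without replicates 4 and 5. *Slc5a6*, a vitamin carrier, changed by 0.38 (adjusted p = 0.000729, under the fold threshold), and *Slc5a3*, a myo-inositol carrier, was at 0.12 (adjusted p = 0.653).

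**Figure D2:**
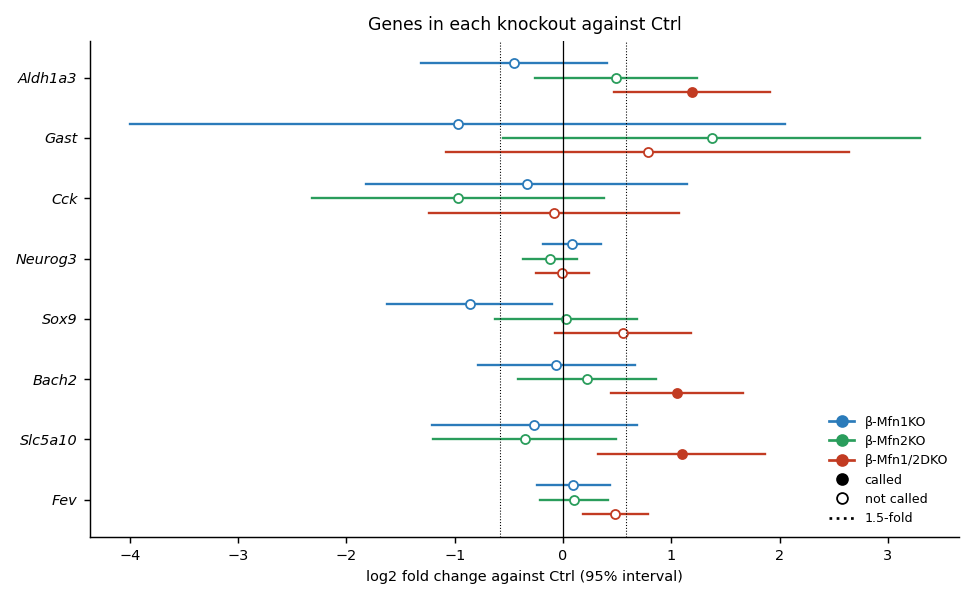
Log2 fold change against Ctrl (horizontal axis, linear scale of log2 units) of each gene in the 3 knockouts, with 95% intervals from the edgeR fit; filled points are called and dotted lines mark 1.5-fold. Only *Aldh1a3* (1.19), *Bach2* (1.05) and *Slc5a10* (1.09) in β-Mfn1/2DKO are filled, and the interval of *Gast* is the widest.

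*Fev* (ENSMUSG00000055197, chr1:74881509-74885419, minus strand) encodes an ETS transcription factor of serotonergic neurons and of the endocrine lineage. It stood at 282, 264, 246, 175, 154 and 199 normalized counts in Ctrl, at 282, 220.0, 238 and 205 in β-Mfn1KO and at 296, 277, 199, 193 and 229 in β-Mfn2KO. In β-Mfn1/2DKO it was at 325, 319.9, 322, 264 and 314, so 4 of 5 libraries were above every Ctrl library. Mean levels with their SD were 220.3 ± 51.4 for the 6 Ctrl, 236 ± 33.3 for the 4 β-Mfn1KO, 239 ± 46.1 for the 5 β-Mfn2KO and 309 ± 25.5 for the 5 β-Mfn1/2DKO libraries. Relative to Ctrl, β-Mfn1/2DKO was 0.48 ± 0.15 log2 units higher (SE), with an adjusted p of 0.0246 in edgeR. It was at 0.57 (adjusted p = 0.0273) without replicates 4 and 5, and at 0.55 (adjusted p = 0.0115) with the acinar score as a covariate. With counts drawn down to the smallest total the adjusted p was 0.0908.

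Of 11 genes for the synthesis, transport, receptors and transcription factors of serotonin cells, 0 were called in β-Mfn1/2DKO, with a median log2 fold change of 0.06, equal to that of all genes. *Ddc*, the decarboxylase that makes serotonin, fell by 0.58 on the log2 scale (adjusted p = 0.000197), and *Lmx1b*, a partner transcription factor, rose by 0.41 (adjusted p = 0.00363), both under the fold threshold.

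*Neurog3* (ENSMUSG00000044312, chr10:62133090-62134763, plus strand) encodes the basic helix-loop-helix factor that commits cells to the endocrine fate. It stood at 616, 484, 614, 446, 411 and 473 normalized counts in Ctrl and at 586, 544, 417 and 604 in β-Mfn1KO. It was at 474, 498, 363, 483 and 505 in β-Mfn2KO and at 472, 499.7, 531, 436 and 590.0 in β-Mfn1/2DKO. Every β-Mfn1/2DKO library lay within the range of Ctrl. Between β-Mfn1/2DKO and Ctrl the log2 fold change was −0.01 with a 95% interval of −0.25 to 0.24 (adjusted p = 0.995 in edgeR), so a 1.5-fold change in either direction lies outside the interval. The interval was −0.37 to 0.13 in β-Mfn2KO and −0.19 to 0.35 in β-Mfn1KO. *Neurog3* shares 273 exon bases with *Fam241b* on the opposite strand, at a mean of 498 raw counts against 1385, and 11.7% of its 75-base stretches occur there, so its level is uncertain. *Fam241b* rose by 0.31 ± 0.075 in β-Mfn1/2DKO (SE, adjusted p = 0.0059), under the fold threshold.

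Of 14 further genes of the endocrine progenitor programme around *Neurog3*, 0 were called in β-Mfn1/2DKO, with a median log2 fold change of 0.12. Of them 6 passed the adjusted p alone, in both directions and under the fold threshold.

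*Sox9* (ENSMUSG00000000567, chr11:112782224-112787760, plus strand) encodes a transcription factor of pancreatic progenitors and of adult duct cells. It stood at 40.7, 125, 131, 102, 64.1 and 46.7 normalized counts in Ctrl and at 41.9, 35.7, 64.6 and 44.4 in β-Mfn1KO. It was at 76.2, 129.6, 67.3, 81.9 and 79.3 in β-Mfn2KO and at 105, 91.7, 65.6, 167 and 199 in β-Mfn1/2DKO. The Ctrl libraries alone spread 3-fold and contained 3 of the 5 β-Mfn1/2DKO values; the 2 above them were again replicates 4 and 5. The log2 fold change over Ctrl was 0.55 ± 0.30 (SE, adjusted p = 0.253 in edgeR), and 0.06 without those 2 libraries. Against β-Mfn1KO, where *Sox9* was lowest at 46.6 ± 12.5 (SD, n = 4), it was called at 1.42 ± 0.36 (SE, adjusted p = 0.0080). That call did not hold without both libraries (0.92, adjusted p = 0.0926) or with the acinar score as a covariate (0.86, adjusted p = 0.124). β-Mfn1KO itself was at −0.86 ± 0.37 against Ctrl (SE), with an adjusted p of 0.637.

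Of 9 other SOX genes, 2 were called higher in β-Mfn1/2DKO: *Sox7* at 0.87 ± 0.20 (SE, adjusted p = 0.00427 in edgeR) and *Sox18* at 0.80 ± 0.22 (SE, adjusted p = 0.0142), both known from endothelium. Without replicates 4 and 5 neither was called, at 0.61 (adjusted p = 0.0733) and 0.69 (adjusted p = 0.0662). Another SOX gene, *Sox11*, was called there, at 1.38 (adjusted p = 0.0451), but not with all libraries (1.15, adjusted p = 0.0573). Of 10 endothelial markers 7 were called higher as well, and their summed level was 8591 to 13176 normalized counts in Ctrl and 12092 to 19617 in β-Mfn1/2DKO; without those 2 libraries 3 of the 10 were called. *Sox12* changed by 0.49 (adjusted p = 0.00022, under the fold threshold) and *Sox13* was at 0.10 (adjusted p = 0.393).

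*Gast* (ENSMUSG00000017165, chr11:100334407-100336996, plus strand) was near 0 in every genotype. Its raw counts were 0, 0, 0, 0, 2 and 1 in Ctrl, 0, 0, 0 and 1 in β-Mfn1KO, 0, 3, 1, 2 and 11 in β-Mfn2KO and 8, 3, 4, 13 and 4 in β-Mfn1/2DKO. It was found in all 5 β-Mfn1/2DKO libraries but these are also the deepest: scaled for depth they were at 2.46, 1.38, 1.41, 5.09 and 2.49 normalized counts. A Ctrl library at 0 allows up to 3 counts, which is 6.35 to 10.52 normalized counts, so a 0 in Ctrl does not bound the level below those of β-Mfn1/2DKO. The ratio of summed counts, scaled to library size, to Ctrl was 1.80 in β-Mfn1/2DKO (95% counting interval 0.563 to 9.19, from 32 and 3 counts) and 2.96 in β-Mfn2KO (0.857 to 15.8, from 17 and 3 counts). These intervals cover counting error only, and both include a ratio of 1.

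*Cck* (ENSMUSG00000032532, chr9:121489824-121495694, minus strand) encodes cholecystokinin, a peptide related to gastrin. Raw counts were 7, 2, 2, 2, 2 and 1 in Ctrl, 5, 2, 2 and 0 in β-Mfn1KO, 2, 1, 1, 4 and 8 in β-Mfn2KO and 29, 21, 9, 30 and 4 in β-Mfn1/2DKO. Scaled to library size, the ratio of β-Mfn1/2DKO to Ctrl was 0.981 (95% counting interval 0.573 to 1.79, from 93 and 16 counts), so the larger raw counts went with the larger libraries. Of 9 genes for receptors and processing enzymes of these peptides, 1 was called higher in β-Mfn1/2DKO and 1 lower. The lower one was *Pcsk1*, a prohormone convertase, which also processes proinsulin, at −0.97 ± 0.14 (SE, adjusted p = 2.44e-05 in edgeR), and at −0.81 (adjusted p = 0.000649) without β-Mfn1/2DKO replicates 4 and 5. Of the most abundant members, *Cpe*, a carboxypeptidase, fell by 0.29 (adjusted p = 0.0063, under the fold threshold) and *Pcsk2* was at −0.28 (adjusted p = 0.0701). The higher one, the gastrin receptor gene *Cckbr*, averaged 6.39 normalized counts over all libraries and was not called without those libraries (adjusted p = 0.172); it is named because it was the only other call.

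Neither single knockout gave a call among the 8 genes. In β-Mfn2KO against Ctrl, where 0.0524% of all genes were called, 0 of 8 were called by edgeR or DESeq2 and 0 had an unadjusted p under 0.05. *Aldh1a3* was at 0.49 there, with a 95% interval of −0.26 to 1.23. In β-Mfn1KO against Ctrl, where 0.0244% were called, 0 of 8 were called by either tool and 1, *Sox9*, had an unadjusted p under 0.05. The intervals of *Bach2* reached 0.86 in β-Mfn2KO and 0.66 in β-Mfn1KO, and those of *Slc5a10* reached 0.49 and 0.68.

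Against β-Mfn1KO, 4 of the 8 were called higher in β-Mfn1/2DKO, where 6.71% of all genes were called. Besides *Sox9*, these were *Aldh1a3* at 1.64 ± 0.41, *Slc5a10* at 1.36 ± 0.43 and *Bach2* at 1.11 ± 0.33 (SE). Their adjusted p values in edgeR were 0.0062, 0.0313 and 0.0224. Without replicates 4 and 5, 1 of the 4, *Slc5a10*, was still called. Against β-Mfn2KO, *Bach2* was at 0.83 (adjusted p = 0.0652), *Aldh1a3* at 0.70 (adjusted p = 0.209) and *Fev* at 0.38 (adjusted p = 0.104). These comparisons share the β-Mfn1/2DKO libraries with the comparison to Ctrl.

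Whether losing *Mfn1* had a larger effect without *Mfn2* was tested as an interaction over all 4 genotypes. None of the 8 was called by edgeR, where 2.74% of all genes were; 3 had an unadjusted p under 0.05, and DESeq2 called 2. *Slc5a10* had the largest interaction, 1.71 ± 0.59 on the log2 scale (SE, adjusted p = 0.0977), followed by *Sox9* at 1.39 ± 0.48 (SE, adjusted p = 0.098) and *Aldh1a3* at 1.15 ± 0.54 (SE, adjusted p = 0.257). A difference between the double and the single effects was thus not shown for these genes in edgeR.

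**Figure D3:**
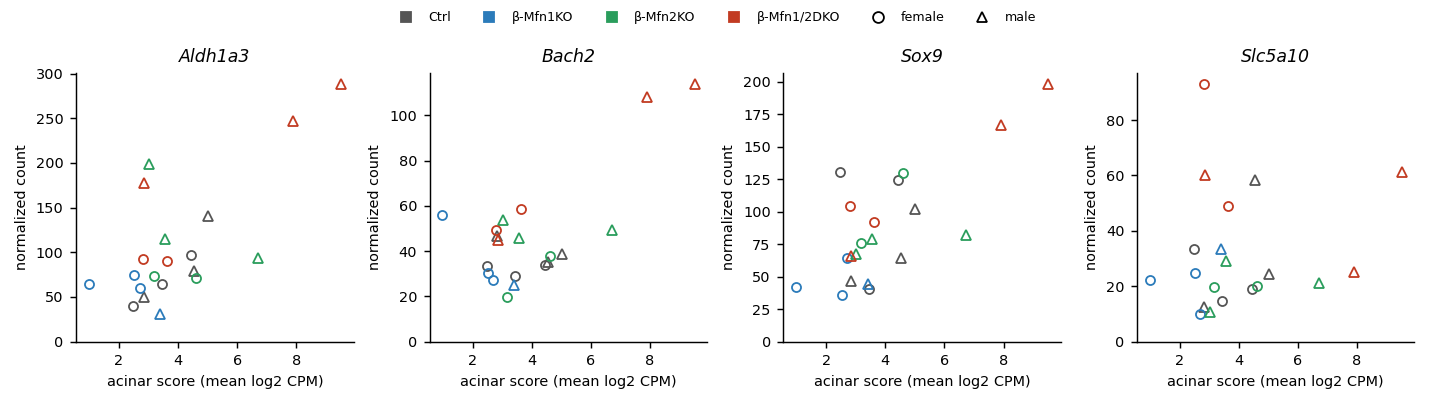
Normalized counts (vertical axes, linear) of 4 genes against the acinar score (mean log2 CPM of 20 acinar genes) in each library, coloured by genotype; circles are female and triangles male mice. β-Mfn1/2DKO replicates 4 and 5, at scores of 7.90 and 9.51, hold the highest *Aldh1a3*, *Bach2* and *Sox9* values, while *Slc5a10* is highest in replicate 1 at a score of 2.81.

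Markers of other cell types were read beside these genes. In β-Mfn1/2DKO, 18 of 20 acinar markers were called higher and 1 lower. Their summed level ran from 15839 to 91809 normalized counts in Ctrl and from 22429 to 37113 in the first 3 β-Mfn1/2DKO libraries, but reached 788370.2 and 2101111 in the other 2 libraries. Of 17 duct markers 7 were called higher, among them *Krt19* at 2.94 ± 0.88 (SE, adjusted p = 0.0233 in edgeR), a keratin of the duct. Without replicates 4 and 5, 0 acinar and 0 duct markers were called higher and 2 acinar markers lower, and *Krt19* was at −0.53 (adjusted p = 0.696). Their summed level was 75823 to 103679 in Ctrl, 87528 to 94032 in those same 3 β-Mfn1/2DKO libraries, and 236650.4 and 390656 in the other 2. No acinar or duct marker was at 0 in all libraries of a group. *Aldh1a3*, *Bach2* and *Sox9* were highest in these same libraries, and the part of exocrine cells in their values was not tested. Mesenchymal markers were called in 2 of 10 (0 of 10 without those 2 libraries), macrophage and lymphocyte markers in 0 of 10 and 0 of 12, and α, δ and Schwann cell markers in 0 of 8, 0 of 6 and 0 of 9. The median log2 fold change of the lymphocyte markers was 2.94 with all libraries and 0.79 without those 2. None of them passed the adjusted p, and 3 were at 0 in all Ctrl libraries. Of 4 PP cell markers 1 was called higher, and 0 without those 2 libraries. The Schwann cell marker *Ngfr* was called higher without those 2 libraries, at 1.79 (adjusted p = 0.0359), but not with them (1.38, adjusted p = 0.0879).

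Of 20 genes of mature β-cells, 0 were called higher and 11 lower in β-Mfn1/2DKO, where 1.97% of all genes were called lower. Their median log2 fold change was −0.65. Without replicates 4 and 5, 9 of these were still called lower. The largest were *Ins1*, an insulin gene that is also the site of the Cre insertion, at −2.60 ± 0.14 (SE, adjusted p = 5.14e-11 in edgeR), and *Ero1b*, an oxidase of insulin folding, at −1.64 ± 0.16 (SE, adjusted p = 2.03e-07). *Ins1* lay below every Ctrl library in the single knockouts as well. It was at 1065893 to 1962278 normalized counts in Ctrl, 658270 to 960924 in β-Mfn1KO and 650437 to 844696 in β-Mfn2KO. In β-Mfn1/2DKO it was at 202304 to 265795. The part of the Cre insertion in these values was not tested. *Slc2a2*, the glucose transporter, was at −1.60 ± 0.15 (SE, adjusted p = 1.9e-07), and *Ucn3*, a peptide of mature β-cells, at −1.36 ± 0.13 (SE, adjusted p = 1.19e-07).

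Of 15 other genes linked to immature or dedifferentiated β-cells, 3 were called higher and 0 lower, with a median of 0.45. Without replicates 4 and 5, 2 of the 15 were called higher and 1 lower, and the median was 0.04. Among the 3 called higher with all libraries, *Cd81*, a tetraspanin of immature β-cells, was at 1.29 ± 0.084 (SE, adjusted p = 6.41e-10 in edgeR). *Slc16a1*, a lactate carrier that mature β-cells keep off, was at 1.05 ± 0.33 (SE, adjusted p = 0.0315), but at 0.52 (adjusted p = 0.385) without replicates 4 and 5, while *Cd81* kept its call at 1.29. Of 14 genes for pluripotency and multipotent pancreatic progenitors, 4 were called higher: *Gata4* at 1.77, *Myc* at 1.64, *Mycl* at 1.62 and *Sox17* at 0.73, with adjusted p values of 0.0457, 1.24e-05, 0.000502 and 0.00648. *Gata4* is also made by acinar cells and *Sox17* by endothelium, and the part of those cells in these values was not tested. Without replicates 4 and 5 neither was called, with *Gata4* at −0.30 (adjusted p = 0.736) and *Sox17* at 0.57 (adjusted p = 0.0723), while *Myc* (1.28) and *Mycl* (1.79) were. The lists together hold 230 genes, 5 of them without counts. Over all lists 59 genes were called, where 5.21% of all genes were, and 23 without replicates 4 and 5. The 59 include 18 acinar markers called higher and 1 lower, and 7 duct and 7 endothelial markers called higher.

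**Figure D4:**
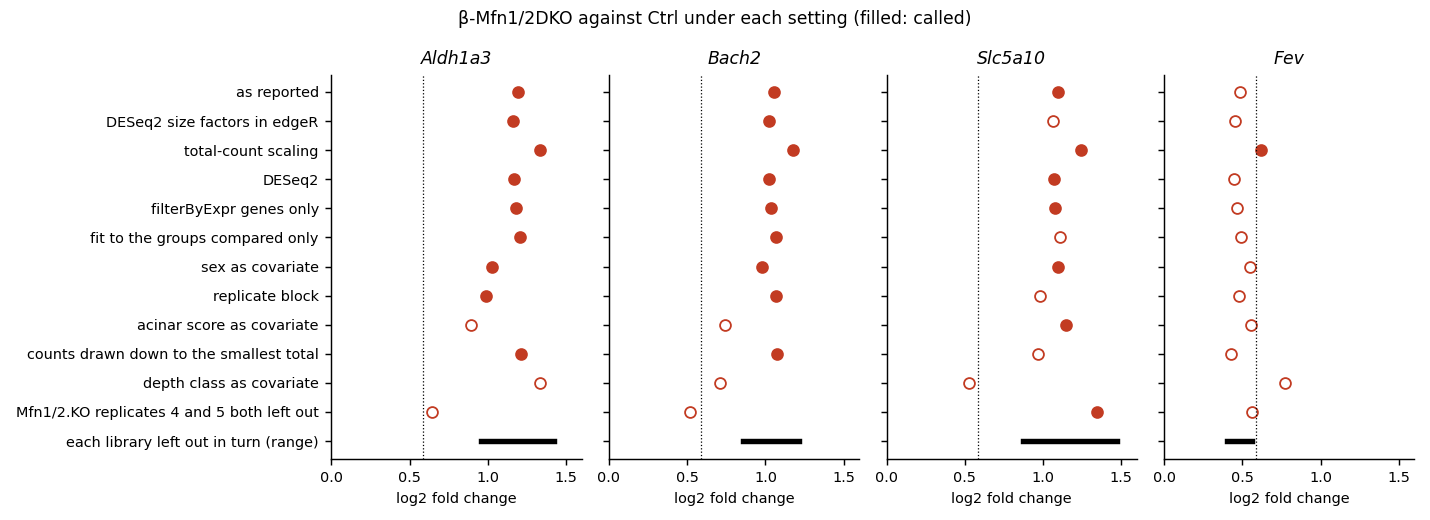
Log2 fold change of β-Mfn1/2DKO over Ctrl (horizontal axes) of 4 genes under each setting of the analysis (rows); filled points are called, the dotted line marks 1.5-fold and the black bar gives the range with each library left out. Leaving out replicates 4 and 5, adding the acinar score or adding depth class empties the points of *Aldh1a3* and *Bach2*, while *Slc5a10* stays filled under the first 2 of these and empties in 5 rows.

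Sex was examined after the data had been seen, as each genotype held female and male mice. Across genotypes, with genotype as a term, 0 of the 8 genes were called between the sexes, as were 0.0559% of all genes, and 2 had an unadjusted p under 0.05. *Fev* was higher in females by 0.36 ± 0.087 (SE, adjusted p = 0.118 in edgeR). In Ctrl, the 3 female libraries were at 246 to 282 normalized counts and the 3 male ones at 154 to 199. The sexes did not overlap in β-Mfn2KO either, at 277 to 296 and 193 to 229, but in β-Mfn1/2DKO females at 319.9 to 325 overlapped males at 264 to 322. *Aldh1a3* was lower in females by −0.67 ± 0.25 on the log2 scale (SE, adjusted p = 0.334). In Ctrl the 3 females were at 39.5 to 97.3 and the 3 males at 49.8 to 140.3. In β-Mfn2KO the 2 females were at 71.5 and 73.3 and the 3 males at 93.3 to 199. The order was reversed in β-Mfn1KO, with 3 females at 59.6 to 74.2 and 1 male at 30.5. In β-Mfn1/2DKO the 2 females, at 90.3 and 92.9, lay within the range of the Ctrl females. The 3 males were at 177 to 288, and 2 of these males were the libraries of high acinar score. The third, replicate 3, was at 177 with a score of 2.85. With sex as a covariate, *Aldh1a3*, *Bach2* and *Slc5a10* were still the 3 genes called against Ctrl. Whether the change from Ctrl to β-Mfn1/2DKO differed between the sexes was fitted as well. Of the 8 genes 0 were called, as were 0 of all genes, and 2, *Fev* and *Neurog3*, had an unadjusted p under 0.05. For *Aldh1a3* the change in females minus that in males was −0.99 ± 0.51 (SE, adjusted p = 0.970 in edgeR).

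**Figure D5:**
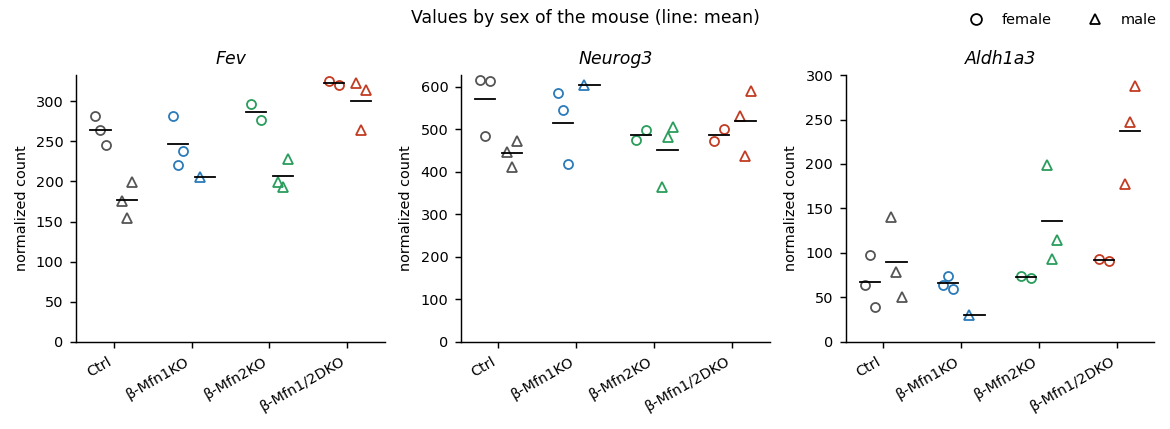
Normalized counts (vertical axes, linear) of *Fev*, *Neurog3* and *Aldh1a3* by genotype, with female mice as circles and male mice as triangles; lines are means. Ctrl *Fev* is at 246 to 282 in females and 154 to 199 in males, and *Aldh1a3* in β-Mfn1/2DKO is at 90.3 to 92.9 in females and 177 to 288 in males.

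How the genes varied among themselves was described by Pearson's r of log2 CPM over the 20 libraries after subtracting genotype means; libraries share depth and exocrine content, and no test was made. Among the 6 genes above 20 normalized counts, *Neurog3* and *Fev* (r = 0.55) and *Aldh1a3* and *Bach2* (r = 0.54) varied most alike, and *Aldh1a3* and *Neurog3* most oppositely (r = −0.38). Over 13492 genes, the one most like *Aldh1a3* was *Secisbp2l* (r = 0.90), and those next were *Zscan20* (0.77) and *Dsg2* (0.76). *Bach2* was most like *Tmem97* (0.88), *Dglucy* (0.86) and *Ccng1* (0.86), and *Fev* most like *Cacna1i* (0.87) and *Zfp939* (0.87). For *Neurog3* they were *Gm20554* (0.85), *Tmie* (0.77) and *Kcna5* (0.76), for *Sox9* *Cldn9* (0.80), *Ptpn14* (0.79) and *Fermt1* (0.79), and for *Slc5a10* *Rap1gap* (0.77), *Spire2* (0.76) and *Mterf2* (0.75).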

How the data were processed

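Islet RNAseq libraries of 20 mice were compared. The authors trimmed, aligned and counted paired-end reads against GRCm38, and the deposited values are estimated counts per gene from RSEM 1.3.1 after STAR 2.6.1b, rounded to integers, not normalized, with genes of no counts removed. Another deposited table, of normalized values, was not used, and 0 columns of no sample were present. Tools listed in the submitters' processing notes also include cutadapt 2.3, FastQC 0.11.8 and DESeq2 1.26.0.

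All 28632 genes were fitted at once over 20 libraries with edgeR 4.0.16 in R 4.3.3 (TMM, estimateDisp, glmQLFit, glmQLFTest), with 1 coefficient per genotype and no covariate. P-values were adjusted by the Benjamini-Hochberg method over all genes, and a call needed both an adjusted p below 0.05 and a change of more than 1.5 times. Groups and sexes came from the sample labels. The paper calls the controls littermates, but nothing states that same-numbered libraries were paired, so p-values measure the spread between these mice. A normalized count is a count rescaled, with TMM factors, to the average effective depth. Depth ran from 12400687 to 122947313 counts per library, which limits low genes in the shallow libraries.

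The 8 genes and the 20 gene lists were chosen with earlier results of these data known. Named were the 8 genes, *Mfn1*, *Mfn2*, for each list at most 4 of its called genes whose mean normalized count was 20 or more, for 6 lists the 2 most abundant genes, and the 3 genes of most similar variation with a mean of 50 or more. Overlapping genes, *Cckbr*, *Sox11*, *Ngfr* and the comparison of sexes were added after seeing the data. Of 20 lists, 5 genes had no counts. A few genes that this rule names are not reported here. Genes were placed with GENCODE annotation of GRCm38, and promoters are from RefSeq. Alternatives were DESeq2 1.42.0, its size factors, total-count scaling, filterByExpr, fits to the compared groups, covariates, drawn-down counts and left-out libraries. Python 3.11.15, pandas 2.3.3 and Matplotlib 3.10.9 were used.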

Additional observations from a re-analysis of the deposited data

Results flagged for a closer look

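Each gene's values within a genotype were searched for a library far from the rest (Dixon's test at 95%), which chance alone flags in about 1 in 20 groups; 5 of 32 groups were picked out. *Gast* stood at 2.77 normalized counts in β-Mfn1KO replicate 4, the highest of its group and from 1 read. The other libraries of that group were at 0, so any read in 1 library alone is flagged. The rate above does not hold for such low counts. *Cck* stood at 20.4 in Ctrl replicate 1, from 7 reads, the highest of its group. *Neurog3* was lowest in β-Mfn2KO replicate 3, at 363. *Sox9* was highest in β-Mfn2KO replicate 2, at 129.6, in a library with an acinar score of 4.61. *Fev* was lowest in β-Mfn1/2DKO replicate 4, at 264, the library with an acinar score of 7.90.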

How the results depend on the processing

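Among the 8 genes in β-Mfn1/2DKO against Ctrl, the 3 calls became 1 with the acinar score as a covariate, 1 without β-Mfn1/2DKO replicates 4 and 5, and 0 with depth class as a covariate, a fit in which only β-Mfn2KO holds both depths; over the lists 59 calls became 29, 23 and 14. The share of all genes called in these fits is not given here, so the smaller counts cannot be set against it. With depth class *Aldh1a3* was at 1.33 (adjusted p = 0.344), *Bach2* at 0.71 (0.610) and *Slc5a10* at 0.53 (0.848). Leaving out each library gave 0 to 3 calls among the 8 and 29 to 65 over the lists, both lowest without β-Mfn1/2DKO replicate 5. Fold changes ran from 0.96 to 1.42 for *Aldh1a3*, 0.86 to 1.22 for *Bach2* and 0.88 to 1.47 for *Slc5a10* (log2). *Slc5a10* also missed the threshold with DESeq2 size factors (adjusted p = 0.0528) and in a fit to the 2 groups (0.0735). *Fev* passed the fold threshold under total-count scaling, at 0.62. That scaling moved the median of all genes from 0.06 to 0.19. *Cck* changed sign under total-count scaling (0.067), with sex (0.0257) and with the acinar score (0.0559), and *Neurog3* under total-count scaling (0.13), in the fit to the 2 groups (0.00539), with sex (0.00563) and without replicates 4 and 5 (0.0023); left-out libraries gave −0.30 to 0.48 for *Cck* and −0.0665 to 0.0654 for *Neurog3*. The cause was not tested.

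Against β-Mfn2KO, 1 call became 2 under total-count scaling, DESeq2, filterByExpr or sex and 0 with depth class, and left-out libraries gave 1 to 2. Against β-Mfn1KO, 4 calls became 1 with the acinar score, 1 without replicates 4 and 5 and 0 with depth class, and left-out libraries gave 2 to 4, lowest without β-Mfn1KO replicate 2 or 3 or β-Mfn1/2DKO replicate 5. For the interaction, 0 calls became 2 under DESeq2 and left-out libraries gave 0 to 1, with 1 call without β-Mfn1/2DKO replicate 3 or 4.

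Replicate numbers mark no stated pairing. Same-numbered libraries correlated over 0.1 in 21 of 27 pairs (mean r = 0.25, against −0.05 for other pairs), so not in every pair. In every genotype replicates 1 and 2 came from females and replicates 4 and above from males. Replicate number thus overlaps with sex, and the part of sex in these correlations was not tested. In a fit with a replicate block, 2 of the 8 genes were called against Ctrl, where *Slc5a10* was at 0.98 (adjusted p = 0.0718), 3 against β-Mfn1KO and 1 against β-Mfn2KO, and 40 over the lists. In the fits of the single knockouts against Ctrl every alternative gave 0 calls among the 8.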
